A study of Mus musculus with 6 samples.

Results

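The CCAAT/enhancer-binding protein (C/EBP) family comprises the transcription factors encoded by Cebpa, Cebpb, Cebpd, Cebpe and Cebpg. These 5 genes were chosen by name among the 43043 genes listed for the series, and all 5 were found. In the mouse melanoma line D4M-3A, Cebpb and Cebpd were the abundant members, and both were lower in Nfkbiz knockout cells. Cebpb fell to 0.416 and Cebpd to 0.333 of their mean control level in TPM, transcripts scaled for length and library size. Cebpg rose slightly, Cebpa rose from a very low level, and Cebpe was at or near 0 reads in every library.

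C/EBP proteins bind DNA through a carboxy-terminal basic region and pair through the leucine zipper next to it, as homodimers, as heterodimers with each other or with other basic leucine zipper (bZIP) proteins. C/EBPβ and C/EBPδ are induced by inflammatory cytokines and activate acute-phase and cytokine genes, C/EBPα drives differentiation of adipocytes, hepatocytes and myeloid cells, and C/EBPε acts late in granulocyte maturation. C/EBPγ is the short, broadly expressed member without a canonical activation domain. It dimerizes with the other members and with ATF4, the transcription factor of the integrated stress response.

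RNA was sequenced from 3 control (Ctrl) samples, transduced by lentivirus with an empty CRISPR-Cas9 construct, and from 3 Nfkbiz KO samples, transduced with an Nfkbiz CRISPR-Cas9 construct. Nfkbiz encodes IκBζ, a nuclear co-regulator of NF-κB target genes. All cells of both groups were selected with puromycin and grown in RPMI-1640 medium with fetal calf serum. The comparison addresses which transcripts depend on IκBζ in these melanoma cells. The labels and methods do not say whether the knockout cells are a single clone or a pool, and 1 construct stands for the knockout.

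The libraries held between 32219900 and 44927203 reads on genes, so that a count of 0 allows up to 0.0668 to 0.0931 CPM, reads scaled to library size, counting error only. Nfkbiz had 69.1, 75.2 and 63.4 TPM in Ctrl and 34.8, 34.7 and 35.1 TPM in Nfkbiz KO. Its transcript therefore remained present in every knockout library. The study checked the depletion of IκBζ protein in this line by immunoblot, and RNA levels do not measure the protein. Pairs of Ctrl libraries differed more in their read counts (chi-square of 25.8 to 65.9 per degree of freedom) than pairs of Nfkbiz KO libraries (3.41 to 5.89). Of 8 melanocyte markers, only Mitf and Pmel passed the filter on low counts, Mitf at 0.69 to 1.21 TPM. Mlana and Tyr, which define pigmented melanocytes, and Sox10, a neural crest factor, had a mean of 0 TPM in both groups. The summed level of the 8 markers was 1.31 to 1.80 TPM in Ctrl and 1.27 to 1.98 TPM in Nfkbiz KO, so the markers that define melanocytes were absent or very low in both groups. Of 15 markers of leukocytes, epithelium, endothelium and fibroblasts, 6 passed the filter. The fibroblast markers Pdgfra and Pdgfrb, also made by dedifferentiated melanoma cells, averaged 36.7 and 46.6 TPM in Ctrl and 39.5 and 51.5 TPM in Nfkbiz KO, and neither passed the test. Dcn, which encodes the matrix proteoglycan decorin, fell from 11.7, 16.5 and 16.7 TPM to 9.95, 9.04 and 9.14 TPM, and Cdh5, an endothelial cadherin, rose from 0.548 to 1.54 TPM, whereas the endothelial marker Pecam1 had 0.0984 and 0.0724 TPM and did not pass the test. Of the leukocyte markers, Adgre1 and Cd3e had a mean of 0 TPM in both groups, and Cd68, at 1.78 to 2.43 TPM in Ctrl and 1.76 to 4.01 TPM in Nfkbiz KO, did not pass the test. The 15 markers summed to 92.6 to 109.6 TPM in Ctrl and 101 to 107.7 TPM in Nfkbiz KO, and the part of other cells in the C/EBP values was not tested.

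Coordinates and sequences given here are those of GRCm39. Cebpb lies on the plus strand of chromosome 2 from 167530835 to 167532338 and is a single exon of 1504 bases. Cebpd lies on the plus strand of chromosome 16 from 15705150 to 15708895, also as a single exon, of 3746 bases. Cebpa and Cebpg are neighbours on chromosome 7, Cebpa on the plus strand from 34818718 to 34821353 and Cebpg on the minus strand from 34745847 to 34756011. Cebpe lies on the minus strand of chromosome 14 from 54947817 to 54949631. The single exon of Cebpa, Cebpb and Cebpd leaves no intron whose unspliced reads could enter their counts.

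The promoters of the members, from 250 bases before to 50 bases after the start of the canonical transcript, were searched on both strands for 7 sets of letters. The TATA box (TATAAA) was found in Cebpa, from 40 to 35 bases before its canonical start at 34818728, and in Cebpb, from base 22 to base 27 after it, and 13.2% of all 21770 promoters of this length held it. The CCAAT box (CCAAT) was found at 2 places in Cebpg and in 39.9% of all promoters. The stretches around these matches are shown because they are the ones found in tested members, with the match in capitals, ATTGG being CCAAT read on the other strand.
Cebpb, chr2:167530845-167530872, plus strand: aggcgccgcctTATAAAcctcccgctcg
Cebpa, chr7:34818677-34818704, plus strand: gcccgaccctcTATAAAagcggtccccg
Cebpg, chr7:34756065-34756091, minus strand: cacggcctgtgATTGGctggtggagct
Cebpg, chr7:34756004-34756030, minus strand: gcagcgcttctATTGGtcacggcggcg
None of the 7 sets of letters was found in the Cebpd window. A STAT motif (TTCNNNGAA, in 8.81% of all promoters) was found once, and a loose C/EBP motif (TTNNGNAA, in 40.5%) was found 2 times, in the window of Cebpe only. The κB motif in the form searched (in 1.76%), the CRE (TGACGTCA, in 2.44%) and the C/EBP palindrome (TTGCGCAA, in 0.211%, which also matches the half-sites) were found in no member. The κB form searched was narrow: a run of G, free bases, a fixed run of T and a run of C. Sites with other bases in place of the T run would be missed, so whether these promoters hold other κB sites was not tested. A match is not a bound site, and the absence of a match holds for these letters in these windows only.

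Cebpb, whose product C/EBPβ activates acute-phase and cytokine genes, was the member with the highest deposited TPM. It had 353, 258 and 366 TPM in Ctrl replicates 1, 2 and 3 and 138, 151 and 118 TPM in Nfkbiz KO replicates 1, 2 and 3. Every knockout library lay below every control library, and Ctrl replicate 2 was the lowest control. The Ctrl libraries averaged 326 ± 58.8 TPM and the Nfkbiz KO libraries 136 ± 16.6 TPM (SD, n = 3 each). On reads, from 4209 to 7298 per Ctrl library and from 1866 to 2537 per Nfkbiz KO library, edgeR's quasi-likelihood test gave a log2 fold change of -1.37 (standard error, SE, of 0.14 and adjusted p = 7.27e-06 by Benjamini-Hochberg over 14419 genes). An exact permutation test gave p = 0.1 (two-sided), the smallest that 3 samples against 3 allow, here and for Cebpd, Cebpg and Cebpa below.

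Cebpd, whose product C/EBPδ is a rapidly induced partner of C/EBPβ in the acute-phase response, showed the largest fall of the members. It had 226, 177 and 205 TPM in the Ctrl libraries and 71.2, 72.2 and 59.5 TPM in the Nfkbiz KO libraries. The groups were far apart, and Ctrl replicate 2 was again the lowest control. The Ctrl mean was 203 ± 24.5 TPM and the Nfkbiz KO mean 67.6 ± 7.09 TPM (SD, n = 3 each). Reads went from 8717, 7177 and 10183 to 2402, 3018 and 2821. The log2 fold change was -1.68 (SE 0.10, edgeR adjusted p = 1.09e-07). Without Ctrl replicate 2, the log2 fold changes were -1.53 for Cebpb and -1.79 for Cebpd, the largest falls obtained by leaving out 1 library. In RNA from a population of cells, fewer cells expressing a gene and less RNA per cell cannot be told apart.

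**Figure D1:**
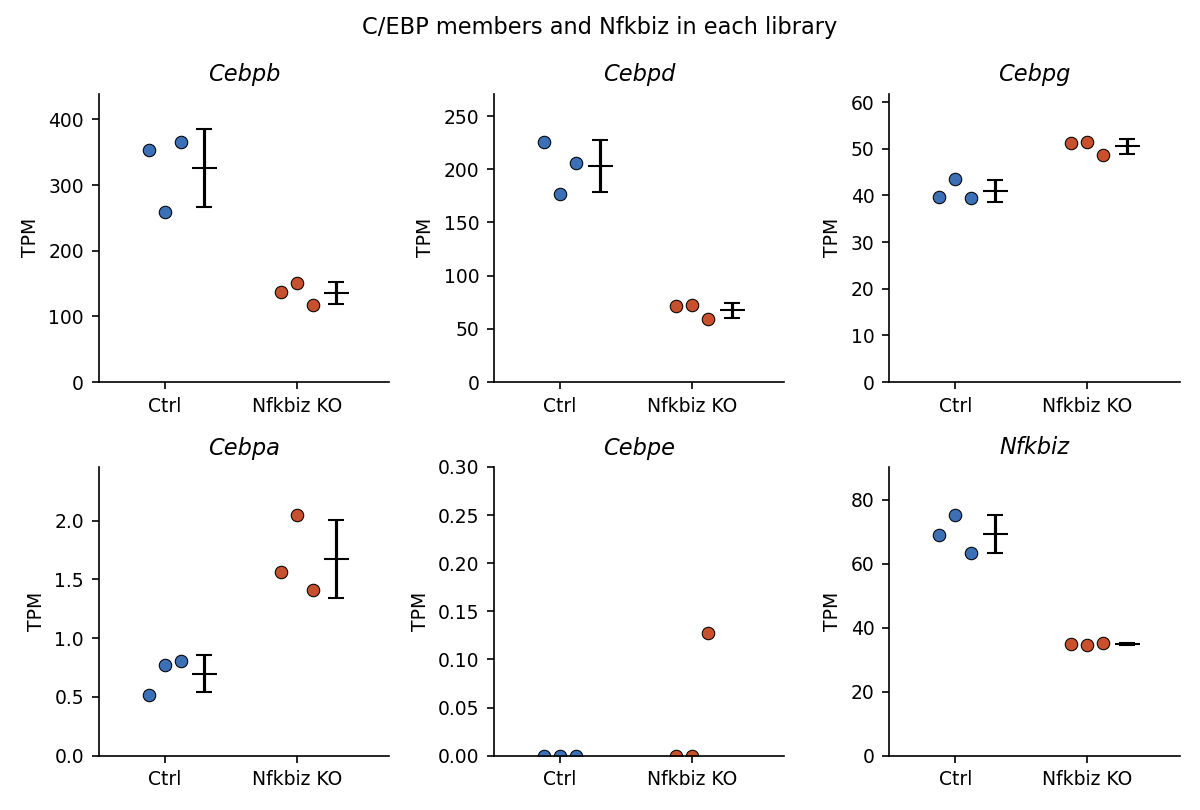
Level in TPM (vertical axis, starting at 0 and scaled for each gene) of the 5 C/EBP members and of the targeted gene Nfkbiz in each of 3 Ctrl (blue) and 3 Nfkbiz KO (red) libraries, with the mean and SD as a bar beside the points, which is left out for Cebpe. Cebpb and Cebpd sit below all Ctrl libraries in Nfkbiz KO, Cebpg and Cebpa above them, and Cebpe is at 0 in all libraries except Nfkbiz KO replicate 3.

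Cebpg, which encodes the short member that forms heterodimers with the others, moved the opposite way and by little. Its level was 39.8, 43.6 and 39.4 TPM in Ctrl and 51.3, 51.5 and 48.7 TPM in Nfkbiz KO. The lowest knockout library was above the highest control. The means of 40.9 ± 2.32 TPM and 50.5 ± 1.59 TPM (SD, n = 3 each) correspond to a 1.23-fold higher level in TPM. On reads normalized by edgeR, the log2 fold change was 0.21 (SE 0.052, adjusted p = 0.00807), a 1.15-fold change. The rise of Cebpg was larger on the TPM scale, with a log2 fold change of up to 0.30 when tested with limma. On that scale the median over all genes was also higher, 0.06 to 0.08 in limma beside -0.02 in edgeR.

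Cebpa, the member that drives terminal differentiation in fat, liver and granulocyte precursors, was close to the limit of what these libraries count. It had 14, 22 and 28 reads in the Ctrl libraries and 37, 60 and 47 reads in the Nfkbiz KO libraries, which gave 0.516, 0.773 and 0.804 TPM against 1.56, 2.05 and 1.41 TPM. The ranges did not overlap. The log2 fold change was 1.15 (SE 0.30, edgeR adjusted p = 0.00924). This call depended on Nfkbiz KO replicate 2, the highest library, without which the log2 fold change was 0.97 with an edgeR adjusted p of 0.0558. On the log2(TPM + 1) scale, which compresses low values, it was 0.65.

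Cebpe, the member of late granulocyte maturation, had 0 reads in 5 libraries and 2 reads, or 0.128 TPM, in Nfkbiz KO replicate 3. A count of 0 allows up to 0.0702 to 0.0850 CPM in the Ctrl libraries, and the 2 reads lie under the limit of 3 counts. Cebpe did not pass the filter on low counts and was not tested, and no fold change is given.

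All 4 members that passed the filter on low counts had an adjusted p of 0.05 or less in edgeR, 2 higher and 2 lower in Nfkbiz KO. The same threshold was passed by 36.6% of all 14419 genes tested, 18.2% higher and 18.4% lower, so passing it does not set a gene apart here. Under the thresholds of the study, which add a fold change above 2 and a difference above 4, read here as a difference of mean TPM, Cebpb and Cebpd were called, against 1.79% of all genes tested in either direction, 1.03% in the direction of a fall and 0.756% in that of a rise. Without the difference in TPM, Cebpa was called as well, against 5.92% of all genes tested. Cebpa had a fold change above 2 but a difference of 0.976 TPM, and Cebpg had a difference of 9.59 TPM but a fold change below 2. The fold change of Cebpd ranked 174 and that of Cebpb 281 among all genes ordered from the largest fall, whereas Cebpa ranked 306 and Cebpg 3202 from the largest rise. The groups of all 4 members did not overlap, which was also the case for 48.4% of the genes tested. The median log2 fold change of all genes was -0.02.

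**Figure D2:**
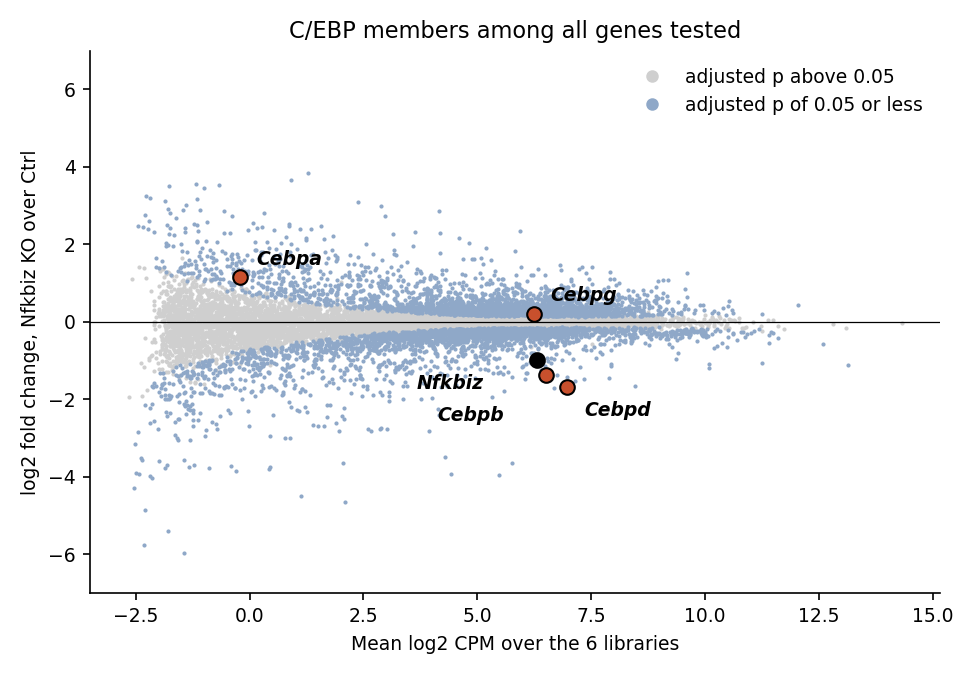
Log2 fold change of Nfkbiz KO over Ctrl (vertical axis) against the mean log2 CPM over the 6 libraries (horizontal axis) for the 14419 genes tested in edgeR, with the 4 tested C/EBP members in red and Nfkbiz in black. Cebpb and Cebpd lie at the lower edge of genes of their abundance, Cebpg lies within the dense band and Cebpa among genes with few reads.

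Per transcript length, the order of the members in Ctrl was Cebpb, Cebpd, Cebpg, Cebpa and Cebpe, and it was the same in Nfkbiz KO. No neighbours in this order overlapped among the Ctrl libraries, where the lowest Cebpb value of 258 TPM was above the highest Cebpd value of 226 TPM. In Nfkbiz KO the closest neighbours were Cebpd and Cebpg, the lowest Cebpd value being 59.5 TPM and the highest Cebpg value 51.5 TPM. Cebpb stood at percentile 97.1 and Cebpd at percentile 95.1 of mean Ctrl TPM among the genes tested, and at 91.6 and 82.5 in Nfkbiz KO. Cebpg stayed close to its place, at percentile 74.2 in Ctrl and 77.1 in Nfkbiz KO.

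The first step of this order rests on the length used for Cebpd. The lengths implied by reads and RPKM, with Cebpb at its annotated length, were 3742 bases for Cebpd and 2629 bases for Cebpa, close to the GENCODE lengths of 3746 and 2626 bases. RefSeq gives Cebpd 2260 bases. The ratio of Cebpb to Cebpd TPM was 1.56, 1.46 and 1.78 in Ctrl and 1.94, 2.09 and 1.98 in Nfkbiz KO, and these ranges did not overlap. Putting in the RefSeq length, with the same reads, gave Ctrl ratios of 0.943, 0.881 and 1.08 and Nfkbiz KO ratios of 1.17, 1.26 and 1.20. With only the length changed, Cebpd passed Cebpb in 2 of 3 Ctrl libraries. Reads outside the shorter model were not removed, so the level of Cebpd under that model was not computed. The length does not enter the comparison of a gene with itself between groups.

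The members' summed level was 619, 480 and 612 TPM in Ctrl and 262, 277 and 228 TPM in Nfkbiz KO. The makeup of this sum also differed between the groups. Cebpg made up 6.42%, 9.08% and 6.44% of it in Ctrl and 19.6%, 18.6% and 21.4% in Nfkbiz KO, without overlap. The share of Cebpd was 35.7% ± 1.81 in the Ctrl and 26.5% ± 0.629 in the Nfkbiz KO libraries (SD, n = 3 each). The share of Cebpb averaged 56.9% and 53.0%, and its ranges overlapped, from 53.9% to 59.8% in Ctrl and from 51.8% to 54.6% in Nfkbiz KO. Cebpa contributed 0.125% ± 0.0392 and 0.652% ± 0.0768 (SD, n = 3 each). The sum and the shares rest on the length of 3746 bases for Cebpd, and they were not computed with the RefSeq length. These are shares of transcripts, which say nothing of the proteins or of the dimers they form.

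**Figure D3:**
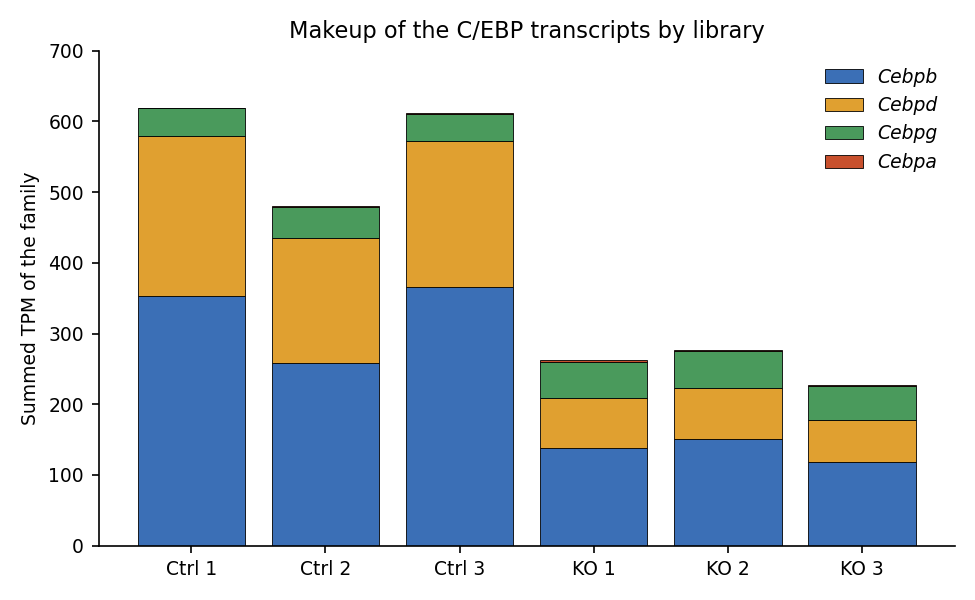
Summed TPM of the C/EBP transcripts (vertical axis) in each of the 6 libraries, stacked by member. The 3 Ctrl libraries reach 480 to 619 TPM and the 3 Nfkbiz KO libraries 228 to 277 TPM, with a smaller Cebpb and Cebpd part and a Cebpg part of similar height, while Cebpa is too low to be seen clearly.

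Other genes share DNA with the members, and the authors counted reads from both strands together, so reads in an overlap cannot be told apart. Peds1, which encodes the desaturase of plasmalogen synthesis, runs on the minus strand and overlaps 908 bases, or 60.4%, of Cebpb. It had 54.5, 54.2 and 50.5 TPM in Ctrl and 50.7, 53.4 and 51.0 TPM in Nfkbiz KO, with a log2 fold change of -0.13 (edgeR adjusted p = 0.101). Spidr, which encodes a scaffold protein of DNA repair, runs on the minus strand and overlaps 1809 bases, or 48.3%, of Cebpd. It had 23.9, 28.2 and 24.5 TPM in Ctrl and 17.5, 17.8 and 16.8 TPM in Nfkbiz KO, and fell with a log2 fold change of -0.71 (SE 0.054, edgeR adjusted p = 7.32e-07). Cebpd had 7177 to 10183 reads in Ctrl against 2336 to 2889 for Spidr, and 2402 to 3018 against 1389 to 1914 in Nfkbiz KO. The part of shared reads in either fall was not tested. The antisense gene Gm45091 overlaps 313 bases of Cebpa and had between 0 and 6 reads per library.

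The nearest RefSeq protein-coding genes gave no common direction over the members. Both genes beside Cebpd fell, Spidr after it with a log2 fold change of -0.71 and the values given above. Mzt2, a component of the microtubule-nucleating complex before Cebpd, fell with a log2 fold change of -0.29 (edgeR adjusted p = 0.0344), a call lost without Ctrl replicate 3 or without any 1 Nfkbiz KO replicate (adjusted p up to 0.122). Ptpn1, a tyrosine phosphatase after Cebpb, rose with a log2 fold change of 0.23 (edgeR adjusted p = 0.0127), a call lost without Nfkbiz KO replicate 1 or 3 (adjusted p up to 0.0748). Pepd, a peptidase gene before Cebpg, had a log2 fold change of -0.02 (edgeR adjusted p = 0.829). On the other sides, Slc7a10 after Cebpa had 0 reads in every library, as had Gm45095, which is a noncoding gene within Cebpg in the GRCm39 annotation. Around Cebpe, Slc7a8 had 1 read in 1 library and Gm29776 between 0 and 6 reads. Tmem189, the RefSeq gene before Cebpb, was not matched by its symbol. The gene on that side of Cebpb in the GRCm39 annotation is Peds1, whose values are given above. The long noncoding RNA gene A530013C23Rik, which starts just beyond the end of Cebpb on the same strand and was named after its values were seen, had 38, 57 and 52 reads in Ctrl and 25, 24 and 28 reads in Nfkbiz KO. It fell with a log2 fold change of -0.95 (SE 0.26, edgeR adjusted p = 0.0141), a call lost without Ctrl replicate 2 or Nfkbiz KO replicate 2 or 3 (adjusted p up to 0.0570).

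The genes whose log2 CPM was most like that of a member over the 6 libraries were found among genes with at least 10 TPM. For Cebpd these were Igfbp7 (Pearson r = 0.999), Flot1 (r = 0.999) and Nr2f1 (r = 0.998), of which Igfbp7, a secreted insulin-like growth factor-binding protein, followed it from 313, 253 and 271 TPM in Ctrl to 129, 126 and 106 TPM in Nfkbiz KO. For Cebpb they were Arpc1a (r = 0.998), Maf1 (r = 0.998) and Tubb5 (r = 0.997), whose falls were smaller, with log2 fold changes of -0.48, -0.32 and -0.27. For Cebpg they were Gid4 (r = 0.998), Abhd5 (r = 0.994) and Tef (r = 0.993), and for Cebpa Cog4 (r = 0.996), Gnpda1 (r = 0.992) and Pop4 (r = 0.991). Such values are common in 2 groups of 3 libraries, and r above 0.95 was reached by 538 genes for Cebpb, 574 for Cebpd, 474 for Cebpg and 86 for Cebpa.

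Among bZIP genes listed as possible partners of C/EBP proteins, more rose than fell. Whether each of them pairs with a C/EBP protein was not examined. Of 14 such genes in the files, 12 were tested, of which 6 rose and 1 fell. Their median log2 fold change was 0.20, beside -0.02 for all genes. The share called was 58.3%, beside 36.6% of all genes tested. Batf2, a partner of AP-1 factors in immune cells, rose from 0.964, 1.40 and 0.870 TPM to 7.23, 6.10 and 7.41 TPM (log2 fold change 2.39, SE 0.17, edgeR adjusted p = 3.21e-07). Dbp and Tef, activators of the PAR subfamily with circadian expression, rose with log2 fold changes of 0.97 and 0.72. Nfil3, the repressor that binds the same elements as Dbp and Tef, was the member of this list that fell, from a mean of 60.9 to 38.7 TPM (log2 fold change -0.76, SE 0.071, edgeR adjusted p = 4.22e-06). Atf4, the partner of C/EBPγ, had 396, 439 and 442 TPM in Ctrl and 477, 481 and 467 TPM in Nfkbiz KO, with a log2 fold change of 0.06 (edgeR adjusted p = 0.486).

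Of 15 regulators of C/EBP proteins, all tested, 3 rose and 3 fell, with a median log2 fold change of 0.07. The share called was 40%, close to the 36.6% of all genes tested. Trib1 and Trib2 encode the Tribbles pseudokinases that direct C/EBPα to degradation, and they moved in opposite directions. Trib2 fell from 73.5, 76.5 and 66.3 TPM to 34.8, 36.9 and 35.3 TPM (log2 fold change -1.10, SE 0.057, edgeR adjusted p = 2.62e-08), and Trib1 rose from a mean of 20.7 to 28.1 TPM (log2 fold change 0.34, SE 0.075, edgeR adjusted p = 0.00356). The kinase genes Rps6ka1 and Mapk3, of the pathway that phosphorylates C/EBPβ, also fell, RSK1 (Rps6ka1) from a mean of 7.95 to 2.58 TPM (log2 fold change -1.66) and ERK1 (Mapk3) with a log2 fold change of -0.27. Crebbp, the acetyltransferase co-activator CBP, rose with a log2 fold change of 0.39. Gsk3b, a kinase of C/EBPα and C/EBPβ, rose with one of 0.17, and its edgeR adjusted p was 0.031 with all libraries and up to 0.132 without Ctrl replicate 1 or any 1 Nfkbiz KO replicate.

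Of 15 receptors, cytokines and signalling genes of the routes that induce Cebpb and Cebpd, all tested, 8 fell and 4 rose. Their median log2 fold change was -0.26. The falls include Socs3, an inhibitor of such a route, and Il6, which is also on the list of inflammatory targets. The share called was 80%, beside 36.6% of all genes tested. Tested by limma on TPM, the list split into 6 lower and 6 higher with a pseudocount of 1 and into 6 lower and 5 higher with one of 0.1. Osmr, the receptor of oncostatin M, had 4.04, 4.57 and 3.23 TPM in Ctrl and 0.744, 0.498 and 0.543 TPM in Nfkbiz KO (log2 fold change -2.82, SE 0.13, edgeR adjusted p = 1.24e-08). The cytokine Il6 fell by 1.28 on the log2 scale, from a mean of 22.6 to 9.97 TPM. Socs3, the feedback inhibitor of this route, fell from 128.1 to 65.1 TPM (log2 fold change -1.07), and Stat3, its transcription factor, which was named after its values were seen, also fell (-0.63). In the other direction, the receptor genes Il17ra (0.61), Tlr4 (0.54) and Tlr2 (0.43) rose, the values being log2 fold changes. Il1r1, the receptor of interleukin-1, fell (-0.26), a call lost in both limma fits on TPM (limma adjusted p up to 0.124). Lifr, named after its values were seen, is among the 8 falls, but its call was lost in 11 of 15 fits. Il6st, the gp130 receptor subunit (-0.16), Il17rc (0.14) and Myd88 (0.18) did not pass the test. The list is therefore not of 1 direction.

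Of 23 inflammatory and acute-phase genes known as C/EBP targets, 14 passed the filter on low counts, of which 12 fell and none rose. The falls were 85.7% of those tested, beside 18.4% for all genes tested. The other 9 were too low to test, and 3 of the 23 had 0 reads in all libraries. The median log2 fold change of the 14 was -2.89. Cxcl5 passed the filter through its Ctrl level alone. So did Csf3 (2, 2 and 6 reads in Nfkbiz KO) and Tnfaip6 (4, 7 and 3 reads), both named after their values were seen. Genes that pass in this way can only fall, and both the share of falls and the median include them. Lcn2, the siderophore-binding lipocalin, had 197, 237 and 238 TPM in Ctrl and 15.7, 14.6 and 15.9 TPM in Nfkbiz KO (log2 fold change -3.96, SE 0.090, edgeR adjusted p = 3.61e-11). Steap4, a metalloreductase, fell by 3.94 on the log2 scale, from 82.1, 98.7 and 84.8 TPM to 5.25, 5.47 and 7.08 TPM. Cxcl5, a neutrophil-attracting chemokine, had between 2.92 and 3.53 TPM in Ctrl and 1, 0 and 2 reads in Nfkbiz KO. Its fitted log2 fold change of -5.97 rests on these few reads. Ptgs2, which encodes cyclooxygenase-2, and Cxcl2, both named after their values were seen, had log2 fold changes of -0.06 and -0.02 and did not pass the test. Ptgs2 was high throughout, with 317 to 426 TPM in Ctrl and 358 to 385 TPM in Nfkbiz KO. These genes are also targets of IκBζ and NF-κB, and several were selected by the study on these samples, so their direction is not independent evidence about C/EBP.

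The differentiation targets of the family were mostly at or near 0 reads. Of 18 myeloid targets, 14 were too low to test and 6 had 0 reads in all libraries. Among the 4 tested, S100a8, a calcium-binding alarmin, fell from 10.9, 14.8 and 14.6 TPM to 7.21, 5.57 and 4.79 TPM (log2 fold change -1.32, SE 0.22, edgeR adjusted p = 0.000548), while its partner S100a9 was at 0 in every library. Mmp9, a gelatinase, fell with a log2 fold change of -0.53. The other two, Cd14 (-0.03) and Csf2ra (0.10), did not pass the test. Of 15 adipocyte and liver targets, 3 were tested and all 3 rose, beside 18.2% of all genes tested. Scd1, a fatty acid desaturase, was the only one above 1 TPM, at a mean of 124.7 TPM in the Ctrl and 157 TPM in the Nfkbiz KO libraries (log2 fold change 0.24, SE 0.057, edgeR adjusted p = 0.00529). The other two were Lpl and Ppargc1a, each below 1 TPM in every library. Lpl had 10, 5 and 11 reads in Ctrl and 29, 23 and 42 reads in Nfkbiz KO, so it passed the filter through its Nfkbiz KO level, and with a filter of 1 CPM in 3 samples it was not tested.

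Genes of amino acid supply and stress, listed as targets of ATF4 and C/EBPγ, went up by small amounts. Whether each is a target of C/EBPγ was not examined, and the list was written with earlier results of these data known. All 15 were tested, of which 14 rose and none fell, with a median log2 fold change of 0.34 and no fold change above 2. The rises were 93.3% of those tested, beside 18.2% for all genes tested. Cth, the last enzyme of transsulfuration to cysteine, had between 42.6 and 50.3 TPM in Ctrl and 92.3, 91.2 and 90.8 TPM in Nfkbiz KO (log2 fold change 0.91, SE 0.055, edgeR adjusted p = 8.93e-08). The cystine transporter gene Slc7a11 and the cationic amino acid transporter gene Slc7a1 rose with log2 fold changes of 0.62 and 0.62. Phgdh, the first enzyme of serine synthesis, was the exception, with a log2 fold change of 0.02 (edgeR adjusted p = 0.825), although it passed the test on the TPM scale with limma. The number called in this list was between 11 and 14 with 1 library left out.

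**Figure D4:**
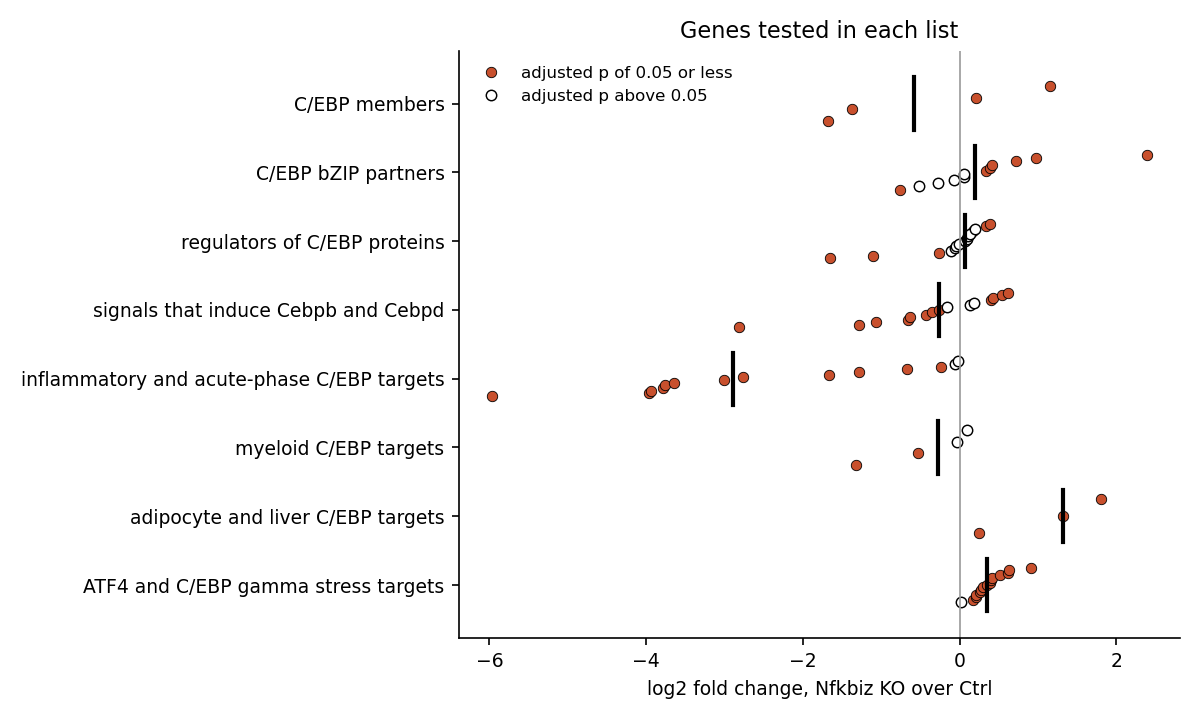
Log2 fold change of Nfkbiz KO over Ctrl (horizontal axis) for every tested gene of the C/EBP members and of 7 lists (rows), with a black line at the median of each row. Filled points passed an edgeR adjusted p of 0.05 and open points did not. Inflammatory and acute-phase targets spread to the left with a median of -2.89, and some of them passed the filter through Ctrl alone. ATF4 and C/EBPγ stress targets lie close together on the right with a median of 0.34.

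Across processing choices, the 4 tested members kept their directions. With other normalizations, filters, reads and tests, the log2 fold change was -1.37 to -1.25 for Cebpb, -1.70 to -1.57 for Cebpd, 0.20 to 0.30 for Cebpg and 0.65 to 1.16 for Cebpa. With each library left out in turn it was -1.53 to -1.24 for Cebpb, -1.79 to -1.60 for Cebpd, 0.19 to 0.23 for Cebpg and 0.97 to 1.31 for Cebpa. The adjusted p stayed at 0.05 or less throughout, except for Cebpa without Nfkbiz KO replicate 2.

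**Figure D5:**
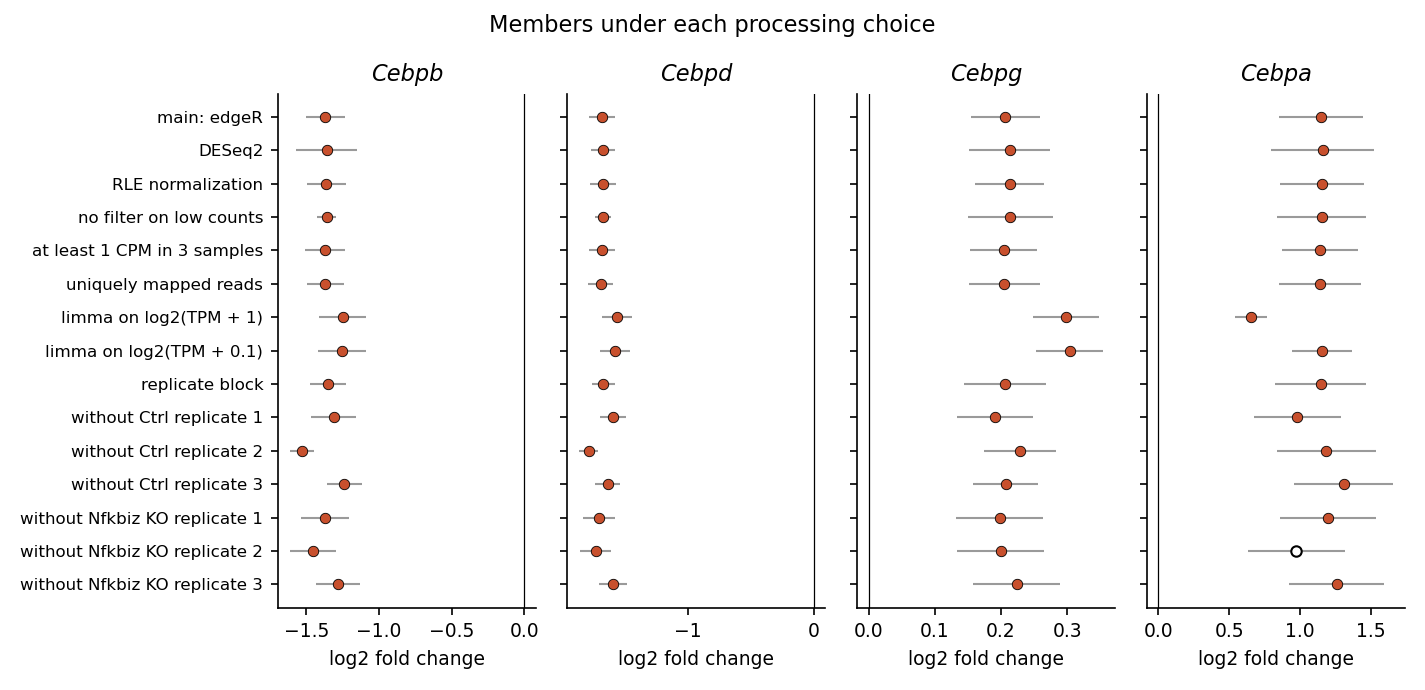
Log2 fold change of Nfkbiz KO over Ctrl (horizontal axes, scaled for each gene) of the 4 tested members under each processing choice (rows), with bars for the standard error. Filled points have an adjusted p of 0.05 or less. The only open point is Cebpa without Nfkbiz KO replicate 2, at 0.97.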

How the data were processed

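RNA of D4M-3A cells was sequenced in paired-end mode in 3 Ctrl and 3 Nfkbiz KO samples, grouped by their titles. The authors processed the reads in CLC Genomics Workbench without regard to strand, with up to 10 hits per read. The methods of the study name GRCm39 and the submitters' processing notes GRCm38. The exon lengths implied by the deposited values are close to those of the GRCm39 annotation, in which 86.2% of the 43043 genes in the files were found by symbol. The deposited total and unique gene reads are raw counts, introns included. The deposited TPM and RPKM values were normalized by the authors for exon length and depth, and their decimal commas were converted. RPKM served only to derive lengths.

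Total gene reads (32219900 to 44927203 per library, 96.5% to 96.9% unique) were normalized by TMM, filtered with filterByExpr (minimum count 10, minimum total 15) and tested by quasi-likelihood in edgeR 4.0.16 (R 4.3.3), with p-values of the remaining 14419 genes adjusted by Benjamini-Hochberg. The study states thresholds but no count test. Changed means an adjusted p of 0.05 or less. A count of 3 was taken as the limit of detection. The procedure was tested on simulated data. The study describes its replicates as independent experiments, and if the samples share a culture the p-values measure only the spread between them. Alternatives were DESeq2 1.42.0, RLE factors, 2 other filters, unique reads, limma 3.58.1 on log2(TPM + 1) and log2(TPM + 0.1), a replicate block and each library left out.

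The members and lists were chosen with earlier results of these data known. From each list, up to 3 genes with the largest rise and up to 3 with the largest fall were named among those changed with at least 1 TPM in either group. Also named were the nearest RefSeq protein-coding genes and, per member, the 3 genes with the highest correlation. Promoters were taken around the start of the Ensembl canonical transcript. Ddit3 was on the list of bZIP partners and is not analysed here. Nothing was computed from the authors' own comparisons.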

Additional observations from a re-analysis of the deposited data

How the results depend on the processing

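The calls of Gsk3b, Mzt2, Ptpn1 and A530013C23Rik were lost without some libraries, with adjusted p up to 0.132, 0.122, 0.0748 and 0.0570, and Phgdh was called only with limma on TPM. The call of Il1r1 was lost with limma on TPM, and that of Lifr in 11 of 15 fits. Among the members, Cebpa had a log2 fold change of 0.97 with an edgeR adjusted p of 0.0558 without Nfkbiz KO replicate 2, which leaves fewer samples. It was 0.97 to 1.31 over all libraries left out in turn. The count of changed members was 3 in place of 4 without that library. Under the thresholds of the study the count was 2, because these add conditions. The ratio of Cebpb to Cebpd TPM was 1.60 in Ctrl and 2.00 in Nfkbiz KO. With the RefSeq length of Cebpd and the same reads it was 0.966 and 1.21, an alternative chosen after seeing the data. The count of changed genes in each list stayed within 1.5 times its value. Over all genes, 5274 were changed, 2627 higher and 2647 lower. On the TPM scale, limma on log2(TPM + 1) called 4331, of which 3004 were higher and 1327 lower, and the median log2 fold change of all genes was 0.06. With 1 library left out the count was 3798 to 5533. Samples with the same replicate number showed no shared deviation from their group means, with correlations of 0.0367, -0.0233 and 0.0256. These values cannot show whether the samples were prepared in pairs. With a replicate block, the log2 fold changes were -1.35 for Cebpb, -1.68 for Cebpd, 0.21 for Cebpg and 1.15 for Cebpa, the members kept their calls, and 5087 genes were changed. Depth limits Cebpa and Cebpe, with at most 60 and 2 reads per library.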
